A study of Mus musculus with 14 samples.

Results

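Long noncoding RNAs are transcripts that act without being translated, and 8 of them were followed through 14 wild-type mouse heart libraries. They were chosen by symbol, as 8 of the 56748 genes of each file. The nuclear set was Malat1, Neat1, Meg3, Rian, Kcnq1ot1 and Miat, which are known to be retained in the nucleus, and the cytoplasmic set was Gas5 and Norad. Malat1 and Neat1 lie on chromosome 19, Meg3 and Rian on 12, Kcnq1ot1 on 7, Miat on 5, Gas5 on 1 and Norad on 2. All 8 had a row in every file, and 5 of them reached the level needed for the test over all genes in at least 1 comparison.

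Malat1 sits in nuclear speckles, the stores of splicing factors, and Neat1 is the scaffold around which paraspeckle proteins assemble. Meg3 and Rian are transcribed from the maternal copy of an imprinted domain, and Kcnq1ot1 from the paternal copy of another, where it silences its neighbours. Gas5 carries small nucleolar RNAs in its introns and its spliced form is decayed during translation, while Norad binds Pumilio proteins in the cytoplasm.

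The study asked how nicotinamide riboside and nicotinamide mononucleotide act on mice that lose frataxin, and only its wild-type hearts are analysed here. Every mouse was WT C57BL6J, received no precursor, and ate doxycycline chow for a time labelled as 16 to 20 weeks. WT_B was mice 4, 5, 7, 8 and 9, WT_F was mice 28 to 32, and WT_A was mice 22, 23, 24 and 26, with 1 library a mouse. The labels give neither sex nor cohort in words, while the study describes a pilot cohort of both sexes and a later cohort of males studied for a shorter time after doxycycline began. Xist, which coats the inactive X chromosome, was at 0 to 0.0122 FPKM in WT_B, 1.23 to 4.97 FPKM in WT_F and 0 in WT_A. The Y-linked Ddx3y was at 5.67 to 14.3 FPKM in WT_B, at 0 in all WT_F libraries and at 2.37 to 15.6 FPKM in WT_A. Cohort, time on doxycycline and sequencing of WT_B cannot be told apart from the group. Neither can the sex that Xist and Ddx3y mark in WT_F, in both comparisons that use it. The study kept females of its pilot cohort longer after doxycycline began than males, while the labels give the same time for all. If WT_F were such females, time on doxycycline could not be told apart from that group either.

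Values are FPKM, fragments scaled by exon length and library size, so levels are given per length of exon. Poly-T capture, isoforms that share 1 length and joined transcripts limit comparison between these RNAs. Depth was 16810000 to 31970000 fragments a library. The libraries fell into separate sets by the share of summed FPKM in the 37 genes of the mitochondrial genome, named with mt-. It was 33.8% to 52.0% in all 5 WT_B libraries, in mouse 28 of WT_F and in mouse 22 of WT_A, and 1.93% to 17.2% in the other 7. Mouse 24 of WT_A stood apart in another way, with 4235 FPKM of the atrial light chain Myl7 and 82.1 FPKM of the ventricular Myl2, against at most 2.003 FPKM and at least 2226 FPKM in all others. The tests of the 8 RNAs are given with and without mice 22, 24 and 28.

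All libraries were made from RNA caught on poly-T beads, which catch RNA through a run of A. Malat1 and the long isoform of Neat1 are known to lack a poly(A) tail, since their ends are cut by RNase P and folded into a triple helix. These ends are shown because they hold the A-rich stretch of that helix. Capitals mark the first U-rich motif TTTCTTTT, the second U-rich motif and an A-rich tract of at least 4 A followed by GCAAAA, searched on the transcript strand, with at most 40 bases between one and the next.
Neat1 long isoform, its last 100 bases: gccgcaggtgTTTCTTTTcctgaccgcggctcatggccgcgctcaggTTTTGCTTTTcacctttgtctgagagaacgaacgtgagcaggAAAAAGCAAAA
Malat1, bases 6597 to 6691 of 6983: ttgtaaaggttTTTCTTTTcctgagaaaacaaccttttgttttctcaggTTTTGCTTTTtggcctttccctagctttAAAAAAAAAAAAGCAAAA

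Of 141767 annotated transcripts, these 2 held the 3 motifs in that order, or 0.00141%. The motifs are written as they stand in these 2 ends, so their own match was fixed in advance. The search shows only that no other annotated transcript held them. The short isoform of Neat1 and Norad end at annotated poly(A) sites, and the Malat1 annotation runs past the helix to another. These ends are printed with AATAAA in capitals, since poly-T beads catch tails added there. AATAAA stood in the last 40 bases of 25.8% of all transcripts.
Neat1 short isoform, its last 40 bases: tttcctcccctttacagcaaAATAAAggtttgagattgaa
Malat1, its last 40 annotated bases: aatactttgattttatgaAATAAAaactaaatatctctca
Norad, its last 40 bases: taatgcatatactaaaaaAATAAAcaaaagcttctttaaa

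Norad is shown for its Pumilio elements, TGTANATA, where N is any base. Its 4915 bases held 11 of them on the transcript strand, or 2.24 per kb. Of the 13097 transcripts of at least 4000 bases, 0.0229% held them at this rate or a higher one. Malat1, Meg3 and the Gas5 transcript searched held none. The longest forms of Neat1 and Kcnq1ot1 held 4 and 18, at 0.193 per kb each, and Rian and Miat 7 and 1. The sites printed begin at the stated base of the transcript, and in the third of them 2 elements stand side by side.
Norad from base 641: agaagtcctgTGTATATAatatgaaaaa
Norad from base 1137: gtaaacatgcTGTAAATAcctttttgtt
Norad from base 2432: tttgctatgcTGTATATAtTGTACATAc
Norad from base 3516: agtgagaaagTGTACATAacggattggt

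Norad had the highest mean FPKM of the 8 RNAs. Poly-T capture and the 21163 bases by which Neat1 was divided, where its short isoform has 3004, bear on this order, and their part was not tested. The Norad FPKM was 41.0, 48.4, 51.9, 51.0 and 36.3 in WT_B, 53.3, 43.2, 40.2, 34.9 and 36.4 in WT_F, and 47.4, 30.98, 46.1 and 33.6 in WT_A, each in the order of the mice above. The 3 groups overlapped, and mice 28, 7 and 8 stood highest. Over the 14 libraries Norad averaged 42.5 ± 7.35 FPKM (SD, n = 14), above the mean of 98.6% of the genes in the files. Its coefficient of variation was 17.3%, the lowest of the 8.

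Neat1 was next, at 24.98 ± 12.3 FPKM (SD, n = 14). It was at 35.3, 37.7, 26.6, 51.5 and 31.2 FPKM in WT_B, at 21.3, 32.1, 12.7, 30.9 and 15.5 FPKM in WT_F, and at 21.4, 13.8, 6.25 and 13.2 FPKM in WT_A. Every WT_B library was above every WT_A library, and the lowest value was that of mouse 24. Norad exceeded Neat1 in 13 of 14 libraries. The counting joined both isoforms of Neat1 in 1 value, so they cannot be told apart here.

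Malat1 was at 17.3 ± 5.08 FPKM (SD, n = 14). Its FPKM was 23.1, 15.6, 23.1, 20.9 and 27.4 in WT_B, 17.3, 19.8, 18.1, 13.8 and 13.99 in WT_F, and 16.7, 10.9, 11.8 and 10.3 in WT_A. Mouse 22 was the only WT_A library inside the WT_B range. Neat1 exceeded Malat1 in 12 of 14 libraries, so these neighbours in level changed places in 2.

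Gas5 followed at 2.52 ± 0.656 FPKM (SD, n = 14), below Malat1 in all 14 libraries. It was at 3.26, 2.65, 2.38, 3.27 and 3.72 FPKM in WT_B, at 2.34, 2.68, 2.78, 2.597 and 2.42 FPKM in WT_F, and at 2.49, 1.82, 1.59 and 1.29 FPKM in WT_A. Mouse 22 again lay inside the range of the other groups, and the other 3 WT_A libraries lay below all of WT_F and WT_B. The value joins 25 annotated transcripts.

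**Figure D1:**
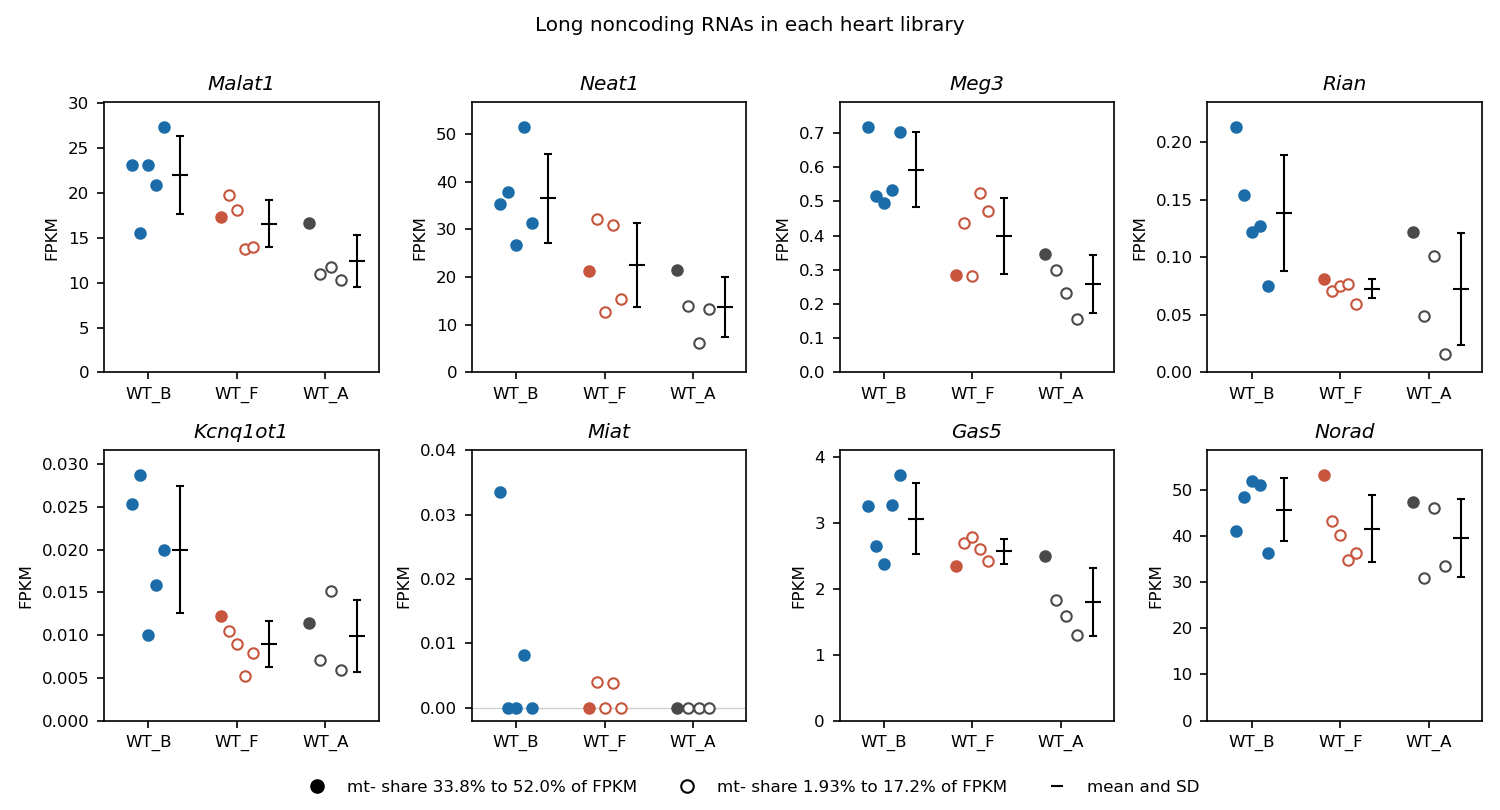
FPKM of the 8 RNAs in each of 14 heart libraries, by group, with 1 panel and 1 linear axis per RNA. Points are libraries, filled at high and open at low mt- share, bars give the mean and SD (none for Miat), and for Neat1 and Meg3 all 5 WT_B points lie above all 4 WT_A points.

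The imprinted RNAs were scarce. Meg3 was at 0.718, 0.515, 0.496, 0.533 and 0.704 FPKM in WT_B, at 0.285, 0.436, 0.282, 0.524 and 0.471 FPKM in WT_F, and at 0.348, 0.299, 0.231 and 0.155 FPKM in WT_A. All WT_B libraries were above all WT_A libraries, as for Neat1. Meg3 reached 0.5 FPKM in 5 libraries only, and its values rest on 59 to 313 fragments a library.

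Rian, which hosts small nucleolar RNAs in the same imprinted domain as Meg3, was at 0.0754 to 0.213 FPKM in WT_B, with a median of 0.127. It was at 0.0596 to 0.0814 FPKM in WT_F and at 0.0157 to 0.122 FPKM in WT_A, on 10 to 156 fragments a library. The WT_B range held 3 of the 5 WT_F values, and mice 22 and 24 had the highest values of WT_A.

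Kcnq1ot1 was at 0.0101 to 0.0288 FPKM in WT_B, 0.00519 to 0.0123 FPKM in WT_F and 0.00592 to 0.0152 FPKM in WT_A. That is 384 fragments over 14 libraries on a 93092-base transcript. It overlaps Kcnq1 on the opposite strand, and whether the counting used strand is not given in the sources used here, so reads of the pair may be mixed.

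Miat, named for its link to myocardial infarction, had 12 fragments in all. They came from mice 4 and 8 of WT_B with 8 and 2, and from mice 29 and 31 of WT_F with 1 each. WT_A had 0 fragments in 4 libraries, which allows up to 0.00274 FPKM over the group as counting error. Miat was not detectable in 10 of the 14 libraries at this depth. No fold is given for it.

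WT_B was compared with WT_A first, 2 sets of wild-type hearts with Y-linked expression. All 5 RNAs with enough signal had higher means in WT_B, and none passed the test over all genes. Meg3 had enough signal only through WT_B, since its WT_A libraries reached at most 0.348 FPKM, under the 0.5 FPKM of the filter. Its place among the 5 thus depended on high WT_B values, and its higher mean lends no support. In limma on log2(FPKM + 1), 0.322% of 12745 genes passed at an adjusted p of 0.05, with 0.259% higher and 0.0628% lower, and 0 of 5 tested RNAs did. With voom on recovered fragments 0 RNAs and 0 genes passed. At an unadjusted p of 0.05, 4 of the 5 passed, as did 2865 of all genes. Neat1 averaged 36.5 ± 9.38 FPKM in WT_B and 13.7 ± 6.21 FPKM in WT_A (SD, n = 5 and 4), a log2 difference of 1.43 ± 0.30 (SE, limma adjusted p = 0.0722).

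Malat1 averaged 22.004 ± 4.30 FPKM in WT_B and 12.4 ± 2.90 FPKM in WT_A (SD), a log2 difference of 0.78 ± 0.18 (SE, limma adjusted p = 0.0838). Meg3 averaged 0.593 ± 0.108 FPKM in WT_B and 0.258 ± 0.0838 FPKM in WT_A, with a log2 difference of 0.34 ± 0.09 on a scale that compresses low values (SE, limma adjusted p = 0.102). Gas5 averaged 3.06 ± 0.538 FPKM in WT_B and 1.80 ± 0.512 FPKM in WT_A, differing by 0.54 ± 0.14 (SE, limma adjusted p = 0.107). Neat1, Malat1, Meg3 and Gas5 did not pass after adjustment over all genes. Before adjustment their limma p-values ran from 0.000644 for Neat1 to 0.00369 for Gas5. Without adjustment, these 4 differences exceeded the spread inside the groups in limma, at a p under 0.05, and in an exact test. In limma 2865 of 12745 genes were under the same unadjusted p, so this does not set the 4 apart. Norad averaged 45.7 ± 6.80 FPKM in WT_B and 39.5 ± 8.47 FPKM in WT_A, and its difference of 0.22 ± 0.17 (SE, limma adjusted p = 0.452) was within that spread.

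Each RNA was also tested alone by exact permutation of the libraries, two-sided, on log2(FPKM + 0.01). These were 24 tests over 3 comparisons, left unadjusted, of which 10 were under 0.05. For WT_B against WT_A the exact p was 0.00794 for Neat1 and Meg3, the smallest that the 126 splits allow. It was 0.0159 for Gas5, 0.0238 for Malat1, 0.0635 for Kcnq1ot1, 0.0873 for Rian and 0.246 for Norad. Of all genes tested, 2.84% had every WT_B library above every WT_A library and 4.07% the reverse, so Neat1 and Meg3 are 2 among 362 genes of that kind.

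The calls changed with the libraries fitted, and in each of these fits Meg3 still met the filter only through WT_B. Without mouse 22, 4 of 5 RNAs passed, with limma adjusted p-values of 0.00455 for Neat1, 0.00627 for Malat1, 0.0111 for Gas5 and 0.0234 for Meg3, but 19% of all genes passed too and 11.6% passed as higher, and 13% of genes had no overlap. Without mice 22, 24 and 28, all 5 passed, Norad at a limma adjusted p of 0.0368, against 33.8% of all genes and 17.1% as higher. With all 14 libraries in 1 fit 4 of 5 passed, against 3.15% of all genes and 1.57% as higher. Without mouse 24 alone the Neat1 difference was 1.13 and the limma adjusted p 0.0648. The share of mt- genes moved with the comparison, and so did markers of other cells. Uchl1, the 1 of these markers that passed and a neuronal enzyme, was at 4.25 ± 0.551 FPKM in WT_B and 7.73 ± 0.839 FPKM in WT_A (SD, limma adjusted p = 0.0322), and the 6 neuron and glia markers summed to 5.09 to 8.13 FPKM in WT_B and 8.58 to 10.6 FPKM in WT_A. All 5 smooth muscle and pericyte markers tested had positive differences, and the 6 listed summed to 145 to 315 FPKM in WT_B and 67.7 to 221 FPKM in WT_A. All 5 blood markers had negative ones, and these summed to 779 to 991 FPKM in WT_B and 873 to 2717 FPKM in WT_A. The 7 atrial markers summed to 33.5 to 92.6 FPKM in WT_B and 45.9 to 13647 FPKM in WT_A. None of these markers was at 0 throughout either group, and the part of these markers in the result was not tested. Fewer cells of a type and less RNA per cell cannot be told apart in such bulk libraries.

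**Figure D2:**
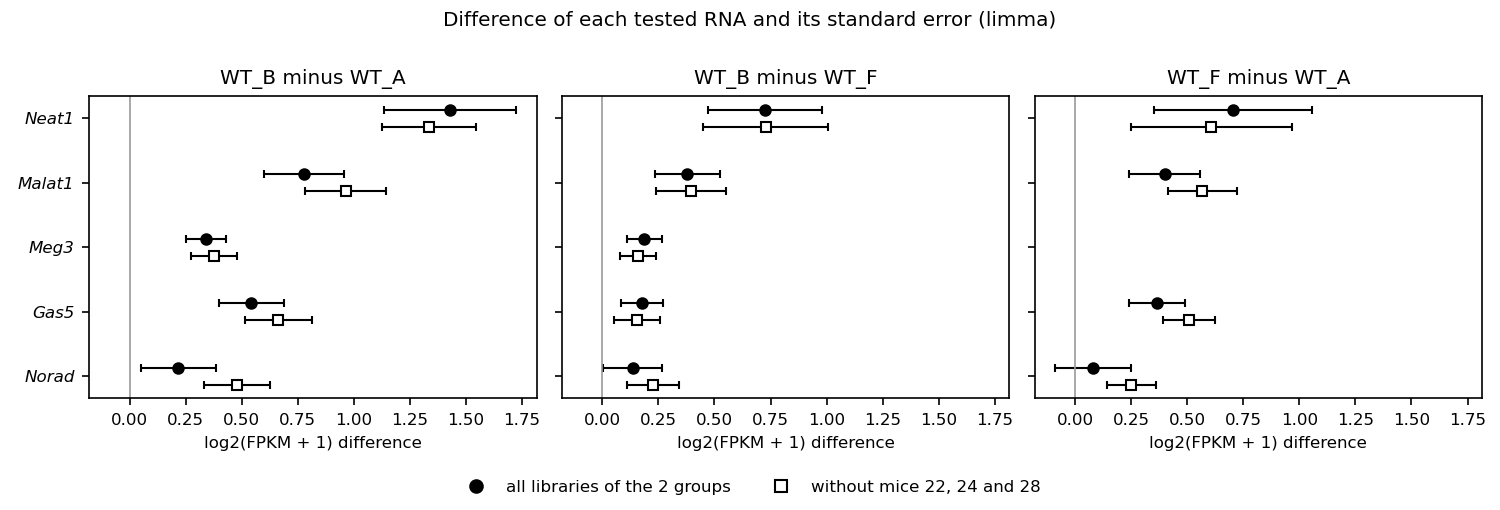
Difference in log2(FPKM + 1) between groups for the 5 RNAs with enough signal for the main limma fit, with the standard error from limma, for 3 comparisons. Filled circles use all libraries, where Neat1 has the largest difference in each panel, and open squares leave out mice 22, 24 and 28.

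WT_B was then compared with WT_F, with the same 5 WT_B libraries, and again all 5 RNAs had higher means in WT_B. Meg3 met the filter mainly through WT_B here too, as only mouse 31 of WT_F, at 0.524 FPKM, reached 0.5 FPKM. Again 0 of 5 tested RNAs passed, in limma or voom, with 1.61% of 12894 genes passing in limma, 0.667% higher and 0.946% lower, and 10.3% in voom. At an unadjusted p of 0.05, 3 of 5 passed, as did 3323 genes. Neat1 averaged 36.5 ± 9.38 FPKM in WT_B and 22.5 ± 8.82 FPKM in WT_F (SD, n = 5 each), a log2 difference of 0.72 ± 0.25 (SE, limma adjusted p = 0.116). Malat1 differed by 0.38 ± 0.15 (SE, limma adjusted p = 0.137), Meg3 by 0.19 ± 0.08 (0.162), Gas5 by 0.18 ± 0.09 (0.256) and Norad by 0.14 ± 0.13 (0.545). In voom, where the median of all genes was -0.25, Malat1 differed by 0.19, Gas5 by 0.03 and Norad by -0.072. None of the 8 had groups without overlap, against 1.62% of genes that were higher in every WT_B library and 3.61% that were lower. The exact p was 0.0238 for Meg3 and Kcnq1ot1, 0.0317 for Rian and 0.0476 for Malat1 and Neat1.

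Markers of other cells also differed in this pair. The collagen gene Col3a1, a fibroblast marker, was at 17.3 ± 1.66 FPKM in WT_B and 11.99 ± 1.80 FPKM in WT_F (SD, limma adjusted p = 0.0429). Of the fibroblast markers 6 of 8 had positive differences, of the endothelial ones 7 of 8, and of the smooth muscle and pericyte ones 5 of 5 tested. Their sums overlapped, at 416 to 539, 182 to 289 and 145 to 315 FPKM in WT_B and 379 to 560, 165 to 269.7 and 106 to 176 FPKM in WT_F. Their part in the result was not tested.

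Rian averaged 0.139 ± 0.0506 FPKM in WT_B and 0.0727 ± 0.00831 FPKM in WT_F, and Kcnq1ot1 averaged 0.02003 ± 0.00744 FPKM in WT_B and 0.00895 ± 0.00267 FPKM in WT_F (SD, n = 5 each). In each case 4 of 5 WT_B libraries were above all WT_F libraries. Fitted over all genes with no filter and a pseudocount of 0.01 FPKM, an alternative chosen after the data were seen, neither passed, at limma adjusted p-values of 0.394 and 0.467.

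WT_F was compared with WT_A last, each group holding 1 library of high mt- share. None of 4 tested RNAs passed in limma or voom, where 0.024% of 12483 genes passed in limma, 0.016% higher and 0.00801% lower. At an unadjusted p of 0.05, 2 of the 4 passed, as did 480 genes. No RNA had groups without overlap, against 0.817% of genes higher and 0.745% lower in every WT_F library. Gas5 averaged 2.56 ± 0.183 FPKM in WT_F and 1.80 ± 0.512 FPKM in WT_A (SD, n = 5 and 4), a log2 difference of 0.36 ± 0.12 (SE, limma adjusted p = 1.00, exact p = 0.0238). Malat1 averaged 16.6 ± 2.62 FPKM in WT_F and 12.4 ± 2.90 FPKM in WT_A, a difference of 0.40 ± 0.16 (SE, limma adjusted p = 1.00, exact p = 0.0635). Neat1 differed by 0.70 ± 0.35 and Norad by 0.08 ± 0.17 (SE), both within the spread of the libraries. Without mouse 24 the Neat1 difference was 0.40.

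Among libraries of low mt- share alone, Malat1 was at 13.8 to 19.8 FPKM in the 4 WT_F libraries and 10.3 to 11.8 FPKM in the 3 WT_A libraries. Gas5 was at 2.42 to 2.78 FPKM in WT_F and 1.29 to 1.82 FPKM in WT_A. Neither RNA overlapped, each with an exact permutation p of 0.0286, the smallest this design allows, and 3.3% of genes were likewise higher in every WT_F library. The limma adjusted p in these libraries was 0.711 for Gas5 and 0.718 for Malat1. Neat1 and Norad overlapped there.

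Inside the libraries of high mt- share, WT_B could be set beside mice 22 and 28 only. Neat1 was at 26.6 to 51.5 FPKM in WT_B against 21.4 and 21.3 FPKM in mice 22 and 28. Meg3 was at 0.496 to 0.718 FPKM in WT_B against 0.348 and 0.285 FPKM in the same mice. For both RNAs all 5 WT_B libraries were above the pair, as were 8.69% of genes. Norad, at 36.3 to 51.9 FPKM in WT_B against 47.4 and 53.3 FPKM, was not higher, and Malat1 and Gas5 overlapped. With 2 mice from different groups, no test was made.

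The level of each RNA was then set against the mt- share. A pooled correlation is not given, since the libraries form separate clusters with a gap between 17.2% and 33.8%. Each cluster mixes groups, 4 WT_F and 3 WT_A libraries at low share and 5 WT_B libraries with mice 22 and 28 at high share. Neither the correlations nor the slopes held a term for group. The part of the share thus cannot be told from that of the group in either cluster. In the 7 libraries of low share, Malat1 had r = 0.69 (exact permutation p = 0.0742) and rho = 0.71 (p = 0.0881). In the 7 of high share it had r = -0.73 (exact permutation p = 0.0312) and rho = -0.68 (p = 0.110), and r became -0.02 without mice 9 and 7, so the relation rested on these 2 libraries. Without the 2 farthest libraries at low share r was 0.54. The signs in the 2 clusters were opposite.

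Norad had r = 0.50 at low share (exact permutation p = 0.261) and r = 0.73 at high share (exact permutation p = 0.0669), and without the 2 farthest libraries these were 0.56 and 0.57. Its rho was 0.57 (exact p = 0.200) and 0.39 (exact p = 0.396). Neat1 had r = 0.03 and 0.08 (exact permutation p = 0.916 and 0.860), with rho of 0.07 and 0.11 (exact p = 0.906 and 0.840). Gas5 had r = 0.60 and -0.52 (exact permutation p = 0.144 and 0.229), with rho of 0.79 and -0.18 (exact p = 0.0480 and 0.713). Without the 2 farthest libraries r was 0.36 and 0.23 for Neat1, and 0.49 and 0.11 for Gas5. Meg3 had r = 0.04 and -0.53 (exact permutation p = 0.938 and 0.247), or 0.41 and -0.32 without the 2 farthest libraries, with rho of 0.29 and -0.39 (exact p = 0.556 and 0.396).

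Rian had r = 0.52 and 0.45 (exact permutation p = 0.226 and 0.316), or 0.74 and -0.52 without the 2 farthest libraries, so its sign at high share rested on mice 9 and 7. Its rho was 0.71 and 0.32 (exact p = 0.0881 and 0.498). Kcnq1ot1 had r = 0.22 and -0.09 (exact permutation p = 0.589 and 0.891), or 0.35 and -0.64 without those libraries, with rho of 0.21 and -0.14 (exact p = 0.662 and 0.783). These belong to 14 relations computed, with unadjusted p-values. In limma slopes over all genes, 0 of 4 RNAs passed at low share, with 0.00825% of 12123 genes passing, and 0 of 5 at high share, with 0.599% of 12528. The smallest limma adjusted p of an RNA was 0.257, for Malat1 at high share.

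**Figure D3:**
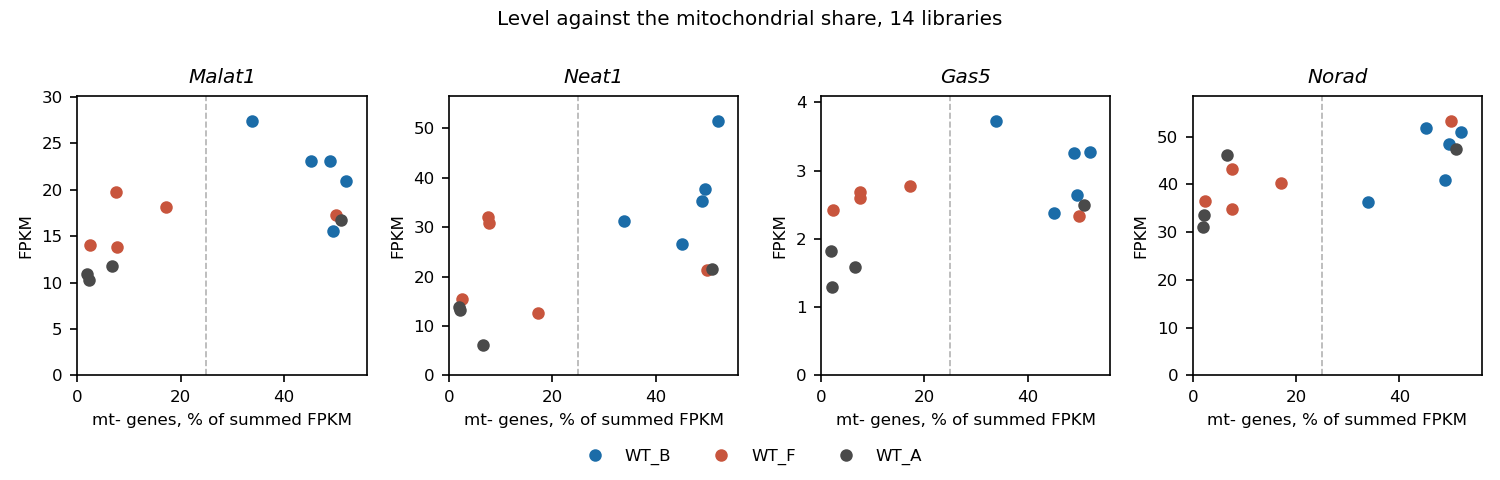
FPKM of Malat1, Neat1, Gas5 and Norad (vertical axes) against the percent of summed FPKM in mt- genes (horizontal axes), 1 point a library, coloured by group. All WT_B points lie to the right of the dashed line at 25%, with 1 point each of WT_F and WT_A.

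FPKM divides by all fragments, so a library full of mitochondrial fragments has less room for other genes. Mitochondrial fragments were 0.630% to 28.2% of a library. Scaled instead to genes outside the mitochondrial genome, the WT_B minus WT_A differences were 1.58 for Neat1 (limma adjusted p = 0.0431), 0.93 for Malat1 (0.0587), 0.65 for Gas5 (0.0738), 0.38 for Meg3 (0.0678) and 0.38 for Norad (0.311). In that scaling 1 of 5 RNAs passed, against 0.799% of all genes and 0.737% as higher, while the median of all genes was 0.08 in place of -0.04. The genes passing were 94 higher and 8 lower, against 33 and 8 before, and in WT_B minus WT_F 130 higher and 60 lower, against 86 and 122. With the log2 of the mt- share as a covariate all 5 had a limma adjusted p of 0.994. The differences were then 1.03 for Neat1, 0.45 for Malat1, 0.29 for Gas5, 0.27 for Meg3 and -0.16 for Norad. Those of Malat1 and Gas5 thus fell by more than 1.5 times. All WT_B libraries had a high mt- share, and of WT_A only mouse 22 did, so group and share are largely tied. The same holds against WT_F, where only mouse 28 had a high share. The covariate fit therefore cannot tell the part of the share from that of the group.

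Ratios inside a library do not depend on that scaling. Neat1 over Norad was 0.862, 0.779, 0.514, 1.01 and 0.861 in WT_B, 0.401, 0.743, 0.315, 0.886 and 0.425 in WT_F, and 0.452, 0.446, 0.135 and 0.393 in WT_A. All WT_B libraries exceeded all WT_A libraries, and WT_F spanned both. Malat1 over Norad was 0.322 to 0.755 in WT_B, 0.325 to 0.457 in WT_F and 0.255 to 0.353 in WT_A, and these overlapped. Gas5 over Norad, 2 cytoplasmic RNAs, was 0.0459 to 0.103 in WT_B, 0.0439 to 0.0744 in WT_F and 0.0345 to 0.0589 in WT_A.

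The nuclear and cytoplasmic sets were compared by the median of their log2(FPKM + 1) differences, as a description. For WT_B minus WT_A the median was 0.21 over the 6 nuclear RNAs, all 6 positive, and 0.38 over the 2 cytoplasmic ones, both positive. The 6 include Rian, Kcnq1ot1 and Miat, all under 0.5 FPKM, and the sign of Miat rests on 10 fragments in WT_B against 0 in WT_A. These medians and signs therefore cannot tell location in the cell from scarcity. With a pseudocount of 0.1 FPKM, which compresses scarce RNAs less, the order turned to 0.66 and 0.49. For WT_B minus WT_F the medians were 0.14 and 0.16, or 0.42 and 0.18 with 0.1 FPKM. For WT_F minus WT_A they were 0.08 and 0.22, or 0.24 and 0.30. Without mice 22, 24 and 28 the nuclear and cytoplasmic medians on log2(FPKM + 1) were 0.26 and 0.57, 0.12 and 0.19, and 0.14 and 0.38 in these comparisons. Over 14 libraries that share groups and mt- share, and as a description, Gas5 had r = 0.86 with Malat1 and r = 0.23 with Norad.

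**Figure D4:**
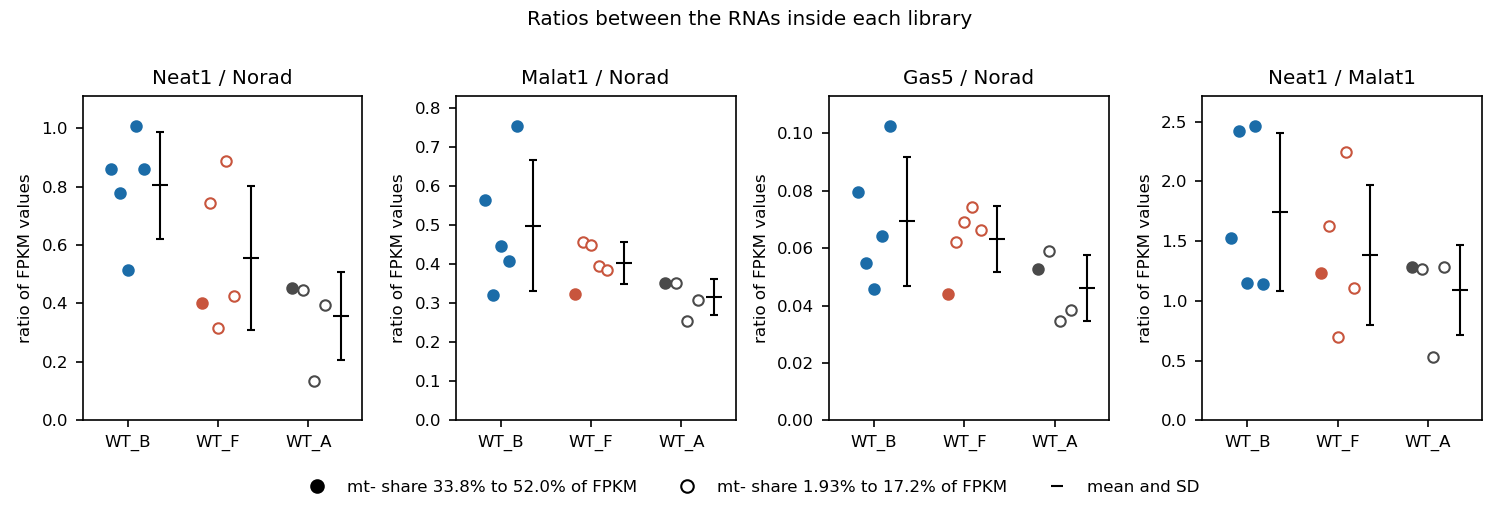
Ratio of FPKM values of Neat1, Malat1 and Gas5 to Norad, and of Neat1 to Malat1, inside each of 14 libraries, by group, filled at high and open at low mt- share, with bars for the mean and SD. Neat1 over Norad is 0.514 to 1.01 in WT_B and 0.135 to 0.452 in WT_A.

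The genes whose levels were most like each RNA were sought among those with a mean of at least 1 FPKM, by Pearson r of log2(FPKM + 1) over the 14 libraries. Those named are the highest of 10744 or 10745 genes for each RNA. They are a description, since the libraries share groups and mt- share. For Neat1 they were Snrnp70 (0.96), Ccnl2 (0.95) and Pabpn1 (0.95), a U1 snRNP protein, a cyclin and a poly(A)-binding protein of the nucleus. For Malat1 they were Gm43597 (0.90), Zfp383 (0.88) and Ppp1r9a (0.88). For Gas5 they were Rbm28 (0.92), Gm49759 (0.92) and Gm43597 (0.92), the last also first for Malat1.

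For Norad they were Tmem170b (0.96), Sgpp1 (0.96) and Arrdc3 (0.95), none shared with the others. Meg3 was most like Vsig2 (0.95), Sp100 (0.93) and Sfswap (0.93), and Rian most like Slfn5 (0.92), Morc3 (0.90) and Wsb1 (0.90). Kcnq1ot1 was most like Arhgap29 (0.85), Adss (0.83) and Prpf38a (0.83). Miat, at 0 in most libraries, reached 0.78 at most, with Ankrd10.

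Promoters were searched for TGACGTCA, the palindrome that CREB-family factors bind, and a window of Meg3 and 1 of Gas5 held it. It was searched in 300-base windows around RefSeq starts, 250 bases before and 50 after, and reads the same on both strands. Of 32851 windows 1.79% held it, and of the 8 windows of the 6 RNAs with an entry 2 did. Both are printed in the transcribed direction with the motif in capitals, from build GRCm38.p6, plus strand.
Meg3, chr12:109540903-109540982: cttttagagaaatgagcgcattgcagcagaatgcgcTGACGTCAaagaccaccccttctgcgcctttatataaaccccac
Gas5, chr1:161035084-161035163: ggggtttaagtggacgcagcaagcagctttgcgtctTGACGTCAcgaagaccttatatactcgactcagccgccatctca

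The proteins that work with these RNAs were read from the same fits. Of 15 nuclear speckle proteins, the surroundings of Malat1, 13 were higher in WT_B than in WT_A by sign with a median log2 difference of 0.67, where the median of all genes was -0.04. Srrm1, a splicing coactivator, rose to 11.5 ± 0.686 FPKM in WT_B, against 7.08 ± 0.475 FPKM in WT_A (SD, limma adjusted p = 0.0275). Pnisr, a serine- and arginine-rich protein, rose to 5.14 ± 0.713 FPKM in WT_B, against 2.14 ± 0.748 FPKM in WT_A (SD, limma adjusted p = 0.0338). Both also passed against WT_F, at limma adjusted p-values of 0.0332 and 0.0312. These calls were not stable. In WT_B minus WT_A that of Srrm1 held in 9 of 19 alternatives and that of Pnisr in 7, with limma adjusted p-values of 0.567 and 0.744 with the mt- share as a covariate, 0.115 and 0.0739 in voom, and none under 0.05 without mouse 24, 26, 4 or 5. In WT_B minus WT_F they held in 7 and 8 of 20, at 0.409 and 0.43 with the covariate. Without mice 22, 24 and 28, 12 and 13 of the 15 passed as higher in these comparisons. Of all genes, 17.1% of 12448 passed as higher in WT_B minus WT_A without these mice, and 1457 of 12764 in WT_B minus WT_F. In the main fits no other speckle protein passed in either comparison, and none did in WT_F against WT_A.

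Of 15 paraspeckle proteins, 14 had a positive difference in WT_B minus WT_A, with a median of 0.31, and none passed in any comparison, with 9 under an unadjusted p of 0.05 in limma here, 6 in WT_B minus WT_F and 2 in WT_F minus WT_A. Of all genes, 2865 of 12745, 3323 of 12894 and 480 of 12483 were under that p in these comparisons. Tardbp, an RNA-binding protein, was at 8.98 ± 1.17 FPKM in WT_B and 5.16 ± 2.02 FPKM in WT_A (SD, limma adjusted p = 0.101). Without mice 22, 24 and 28, 6 passed as higher in this comparison and 4 against WT_F, beside 17.1% of 12448 and 1457 of 12764 genes. Sfpq, a core paraspeckle protein, was at 15.6 ± 2.80 FPKM in WT_B and 11.4 ± 1.12 FPKM in WT_A (SD, limma adjusted p = 0.136). Among 6 Norad partners the splicing regulator Rbmx passed in WT_B against WT_F, at 7.03 ± 0.675 FPKM in WT_B and 5.11 ± 0.447 FPKM in WT_F (SD, limma adjusted p = 0.03999). The call held in 7 of 20 alternatives and not with the mt- share as a covariate (limma adjusted p = 0.483).

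Of 14 genes that decay Gas5 or share its translational control, none passed in any comparison, with 6, 7 and 0 under an unadjusted limma p of 0.05 in WT_B minus WT_A, WT_B minus WT_F and WT_F minus WT_A. The ribosomal protein gene Rps6 was at 115 ± 10.7 FPKM in WT_B and 179 ± 30.1 FPKM in WT_A (SD, limma adjusted p = 0.0919), opposite in sign to Gas5. The decay kinase Smg1 was at 2.62 ± 0.220 FPKM in WT_B and 1.71 ± 0.375 FPKM in WT_A (SD, limma adjusted p = 0.105). By sign, 5 of the 14 differences were positive and 9 negative in WT_B minus WT_A. Of 12 genes of 3′ end processing 11 were tested and none passed, with 2, 3 and 0 under an unadjusted limma p of 0.05 in the same comparisons. Beside both lists, 2865 of 12745, 3323 of 12894 and 480 of 12483 genes were under that p.

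Of the 13 genes of the Kcnq1ot1 domain 7 were tested and none passed, with 1, 0 and 0 under an unadjusted limma p of 0.05 in these comparisons. Of all genes, 2865 of 12745, 3323 of 12894 and 480 of 12483 were under that p. By sign, 6 of the 7 differences were negative in WT_B minus WT_A, 5 in WT_B minus WT_F and 7 in WT_F minus WT_A. Kcnq1, the channel gene it overlaps, was at 11.8 ± 2.66 FPKM in WT_B and 16.0 ± 4.04 FPKM in WT_A (SD, limma adjusted p = 0.270). Cdkn1c, a cell cycle inhibitor of that domain, was at 7.79 ± 1.66 FPKM in WT_B and 6.39 ± 1.13 FPKM in WT_F (SD, limma adjusted p = 0.266). Of the Meg3 domain only Wdr25 had enough signal beside Meg3, and it did not pass.

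Other noncoding RNAs served as context. Of 25 nuclear ones 7 were tested in WT_B against WT_A, all 7 with positive differences, a median of 0.43 and 1 call. Firre, an X-linked nuclear organiser, rose to 3.70 ± 0.293 FPKM in WT_B, against 1.92 ± 0.139 FPKM in WT_A (SD, limma adjusted p = 0.0275). Its call held in 9 of 19 alternatives, and not with the mt- share as a covariate (limma adjusted p = 0.523) or in voom (adjusted p = 0.0739). Mhrt, an antisense RNA of the myosin heavy chain locus, was at 18.7 ± 4.43 FPKM in WT_B and 7.05 ± 2.63 FPKM in WT_A (SD, limma adjusted p = 0.0506). It overlaps Myh7, so unstranded reads could be mixed. Against WT_F, Xist passed as lower in WT_B (limma adjusted p = 0.00378). Of the cytoplasmic and small nucleolar host RNAs 13 were tested in each comparison, 7 with positive differences in WT_B minus WT_A, a median of 0.08, and none passed, with 3, 6 and 0 under an unadjusted limma p of 0.05 in the comparisons as ordered above. Of all genes, 2865 of 12745, 3323 of 12894 and 480 of 12483 were under that p. Without mice 22, 24 and 28 more list genes passed in WT_B minus WT_A, namely 4 nuclear RNAs as higher, 3 host RNAs as higher and 2 as lower, 3 of the Kcnq1ot1 domain as lower, 3 genes of Gas5 decay or translation as higher and 5 as lower, and 2 of 3′ end processing each way, beside the 33.8% of all genes.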

How the data were processed

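Poly-T selected RNA from 14 hearts was sequenced by the authors, who used featureCounts v1.5.0-p3 for counting and deposited FPKM values, 1 file a library, with GRCm39 named in the submitters' processing notes. The aligner and the use of strand in counting are not given in the sources used here. The authors compared groups with DESeq2 1.20.0, and those results were not used. Of 56748 Ensembl identifiers 52125 were named with GENCODE M21 of another build, GRCm38, and Norad was matched through its RefSeq synonym. Fragments were recovered from steps in the FPKM values: 89.9% to 91.7% of values of 1 to 30 fragments came within 0.02 of whole, against 4% if spread evenly. Intervals and floors cover counting error alone.

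The test was limma 3.58.1 in R 4.3.3 (two-sided, intensity trend) on log2(FPKM + 1), for genes reaching 0.5 FPKM in 4 or more of the libraries compared, with Benjamini-Hochberg adjustment over all genes. The labels do not state separate extractions, so p-values measure the spread between these mice. Scripts were tested on simulated data. Single RNAs were tested by exact permutation. Alternatives were other pseudocounts, filters and scalings, 1 fit of 14 libraries, the mt- share as covariate, voom on fragments, and libraries left out. Sequences are from GENCODE M21 transcripts and RefSeq. Genes named are the 8 RNAs, the 3 genes most like each, the markers of sex and chamber, and from each list genes that passed or were among the 4 of smallest p in a comparison. Members and lists were chosen with earlier results of these data known. Python 3.11.15 was used for the rest.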

Additional observations from a re-analysis of the deposited data

Results flagged for a closer look

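Of 42 sets of values, 8 RNAs and 6 ratios in 3 groups, 2 held a library far from the others of its group. Chance gives about 1 in 20, so this count is near the one that chance gives. Miat was at 0.0336 FPKM in mouse 4 of WT_B, and the nearest WT_B library was at 0.00812 FPKM, both on few fragments (8 and 2). The ratio of Neat1 to Malat1 was 0.531 in mouse 24 of WT_A, the library with high atrial markers, and at least 1.26 in the other WT_A libraries. No reason for either was tested.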

How the results depend on the processing

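No paired analysis was possible because the groups share no replicate number. The count of 0 of 5 RNAs called in WT_B minus WT_A became 1 with scaling to genes outside the mitochondrial genome, 4 with all 14 libraries in 1 fit, 5 without mice 22, 24 and 28, and 0 to 4 with 1 library left out, 4 only without mouse 22. In the other comparisons it was 0 throughout. Gas5, Malat1, Meg3 and Neat1 kept their positive sign under every alternative between groups. Norad reversed with the mt- share as a covariate (-0.0092 in WT_F minus WT_A, -0.16 in WT_B minus WT_A, -0.14 in WT_B minus WT_F), with voom in WT_B minus WT_F (-0.072, where the median of all genes moved to -0.25), and with 1 library left out in WT_F minus WT_A (-0.025 to 0.17). The cause was not tested.

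The number of genes called in WT_B minus WT_A was 41, and 0 with no filter (3791 at an unadjusted p of 0.05), 26 with a filter of 2 FPKM, 102 with scaling to genes outside the mitochondrial genome, 401 in 1 fit of 14 libraries, 2 with the covariate, 4206 without mice 22, 24 and 28, 0 with voom (3256 at an unadjusted p of 0.05), 16 with no filter and a pseudocount of 0.01 FPKM, and 0 to 2392 with 1 library left out (highest without mouse 22). In WT_B minus WT_F it was 208, and 20 with no filter, 35 in 1 fit, 11 with the covariate, 2645 without mice 22, 24 and 28, 1324 with voom, 61 with no filter and 0.01 FPKM, and 17 to 2645 with 1 left out (highest without mouse 28). In WT_F minus WT_A it was 3, and 6 with a pseudocount of 0.1 FPKM, 1 with no filter, 9 in 1 fit, 1 without mice 22, 24 and 28, 6 with no filter and 0.01 FPKM, 0 (835 at an unadjusted p of 0.05) in libraries of low mt- share, and 0 to 4 with 1 left out. The alternatives with 0.01 FPKM or low mt- share alone were chosen after the data were seen.

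Slopes on mt- share called 1 gene at low share, 0 with a pseudocount of 0.1 FPKM (1438 at an unadjusted p of 0.05) and 0 to 669 with 1 library left out (highest without mouse 24). At high share they called 75, 0 without the 2 farthest libraries (504 at an unadjusted p of 0.05) and 0 to 169 with 1 left out. Slopes per 10 points reversed for Gas5 at high share without the farthest libraries (0.15), and with 1 left out for Gas5 (-0.23 to 0.28), Neat1 (-0.028 to 1.095 at low, -0.13 to 0.58 at high share) and Norad (-0.027 to 0.25 at high share). The nuclear medians moved with a pseudocount of 0.1 FPKM to 0.24 in WT_F minus WT_A, 0.66 in WT_B minus WT_A and 0.42 in WT_B minus WT_F. Rian, Kcnq1ot1 and Miat stayed under 0.5 FPKM in all libraries, so the main limma fit left them out. Between groups they were tested by exact permutation and in fits with no filter only.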
